A study of Mus musculus with 8 samples.

Results

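The endoplasmic reticulum (ER) folding and stress genes examined here are 38 genes chosen by name for their known roles, from the 56748 rows of the deposited gene count table. All 38 were found in the table, and 37 of them were among the 13960 genes that passed the filter on low counts. The libraries came from primary cardiac fibroblasts of wild-type C57BL/6J mice taken at 1 day of age, with 4 libraries of untreated cells and 4 of cells given TGF-β1 at 10 ng/mL for 48 h. Per the labels, whole hearts were digested and cells that attached during a short plating step were kept, so the cultures are primary cells enriched for fibroblasts and not a pure line. The replicates are described as isolated from different litters, so p-values measure the spread between these cultures. How many animals went into a culture is not stated in the labels. A protocol text names the inhibitor Mirin, and none of the 8 libraries is labelled with it.

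Proteins that enter the secretory pathway fold in the ER lumen, where Hsp70 and Hsp90 chaperones, lectin chaperones, disulfide isomerases and prolyl isomerases act on them. Chains that fail to fold are pulled back to the cytosol and degraded, a route known as ER-associated degradation. When unfolded chains build up, the sensors IRE1, PERK and ATF6 start the unfolded protein response, which raises transcription of many of the same chaperone genes. In activated fibroblasts this machinery also carries procollagen, which needs disulfide bonding of its propeptides and slow prolyl isomerisation before the triple helix forms.

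Many promoters of this response carry the ER stress response element (ERSE), a binding site of ATF6 and XBP1 together with NF-Y. The elements are shown because they are a DNA feature through which many genes of this response are known to be raised, though not all members hold one. They are also shown because genes that rose and genes that were not called carry the same letters. Promoters of 33 of the 38 members were matched by symbol in RefSeq (250 bases before and 50 after the start site, GRCm38.p6 table). The ERSE was searched on both strands as CCAAT, 9 bases of any kind and CCACG, and 10 of the 33 members (30.3%) held it in at least 1 promoter, against 27 of the 26992 other genes in the table (0.1%). Counted by promoter, with those of the members included, it was in 39 of 32851 (0.119%). The members were chosen for known roles and the ERSE is a known element of such genes. The excess is therefore a description and not an independent test. The shorter ERSE-II, searched as ATTGG, 1 base of any kind and CCACG, was found in 2 members (6.06%), against 0.037% of the other genes and 0.0365% of promoters. The UPRE core TGACGTGG was found in 1 member, Txndc5, against 0.711% of the other genes and 0.676% of promoters, and the C/EBP-ATF site TGATGCAAT, bound by ATF4, in 0 members, against 0.222% of the other genes and 0.192% of promoters. No full match of an ERSE overlaps one of the ERSE-II in these members. The windows below are printed 5′ to 3′ on the strand of the gene with the element in capitals (an element on the other strand reads CGTGG to ATTGG), and were placed by exact match in GRCm39. The window of Hspa5 lies inside the gene interval of the file, which starts upstream of the RefSeq start. The element of Dnajb11 lies 7 to 17 bases after the RefSeq start, inside the gene and not upstream of it, and is printed without flanks. The first 6 genes, Hspa5 to Dnajb11, were higher with TGF-β1 (Hsp90b1 holds both of its elements in 1 window), and Herpud1 was also higher.
Hspa5, chr2:34662032-34662060, plus strand: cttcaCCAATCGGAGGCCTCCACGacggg
Hsp90b1, chr10:86541376-86541541, minus strand: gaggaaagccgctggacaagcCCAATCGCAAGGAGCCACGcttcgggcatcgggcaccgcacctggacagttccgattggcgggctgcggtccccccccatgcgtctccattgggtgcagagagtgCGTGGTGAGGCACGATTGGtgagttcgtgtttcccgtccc
Canx, chr11:50216606-50216666, minus strand: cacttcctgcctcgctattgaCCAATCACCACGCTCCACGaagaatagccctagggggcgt
Calr, chr8:85573683-85573743, minus strand: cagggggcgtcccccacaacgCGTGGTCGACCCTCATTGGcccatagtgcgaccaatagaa
Dnajc3, chr14:119175218-119175278, plus strand: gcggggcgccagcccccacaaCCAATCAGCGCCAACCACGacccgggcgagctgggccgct
Dnajb11 (ERSE-II), chr16:22676602-22676612, plus strand: ATTGGCCCACG
Herpud1 (ERSE-II), chr8:95112984-95113036, plus strand: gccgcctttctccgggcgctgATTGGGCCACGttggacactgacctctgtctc
Creld2, not called, chr15:88703702-88703762, plus strand: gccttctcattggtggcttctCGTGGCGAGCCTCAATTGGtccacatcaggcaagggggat
Pdia6, not called, chr12:17316471-17316531, plus strand: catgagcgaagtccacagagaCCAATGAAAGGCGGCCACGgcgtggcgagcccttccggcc
Syvn1, not called, chr19:6096541-6096601, plus strand: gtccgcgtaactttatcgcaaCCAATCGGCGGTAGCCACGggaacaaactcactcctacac

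The other ERSE carriers were Ero1b, which was not called, and Derl3, which was too low to test. Of the 9 carriers tested, 5 rose and 4 did not pass the test, with a median log2 fold change of 0.17. Of the 23 members in the promoter table without an exact ERSE, 17 rose, with a median of 0.16. Of 8 tested genes outside the members whose promoter window holds the ERSE, 3 fell and the others were not called, with a median of −0.11. A match describes the letters of the window and does not show that a factor is bound there, and members without a match can hold variant elements or elements outside the window.

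TGF-β1 raised 26 of the 37 tested members and lowered 0, at small sizes. The rises ran from 7.17% to 46.2%, and the median log2 fold change of the 37 was 0.17. Over all genes tested, 17.6% rose and 18.5% fell (36.0% were called in either direction), and the median log2 fold change was 0.01. Calls are from the edgeR quasi-likelihood test on counts per gene, with Benjamini-Hochberg adjustment over the 13960 genes and a threshold of 0.05. At an unadjusted p under 0.05, 28 members were higher and 0 lower, and DESeq2 called 24 higher and 0 lower. In 23 members all 4 treated libraries lay above all 4 untreated ones, against 16.5% of all genes tested, and in 0 members they all lay below, against 17.4%. With an added bound of a 25% rise, 2 of the 37 members rose (Hyou1 and Pdia5), no larger a share than the 6.39% of all genes.

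The scaling of the libraries decides how many of these small rises are called. With plain library totals in place of the TMM factors (trimmed mean of M values, which set the bulk of genes to no change), 13 members rose and 0 fell, and the median of the members was 0.09. That scaling moved the median of all genes tested to −0.07 and their split to 1301 higher and 3673 lower, against 2451 higher and 2579 lower with TMM. The 13 that remained were Hspa5, Hyou1, Hsp90b1, Canx, Uggt1, Pdia3, Pdia4, Pdia5, Fkbp7, Fkbp10, Herpud1, Xbp1 and Atf6, and these were called in each of the 16 other fits.

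The share of all reads that fell on the 38 members uses no TMM factor, but it is itself a scaling by library totals. Ribosomal RNA is part of those totals. The share of the members was 0.850%, 0.8289%, 0.818% and 0.827% in untreated replicates 1 to 4. In the treated ones it was 0.886%, 0.921%, 0.899% and 0.894%. The 95% exact binomial (Clopper-Pearson) interval, which covers counting error only, was 0.845% to 0.854% in untreated replicate 1 and of similar width in the others. The treated libraries all lay above the untreated ones. In bulk RNA a change in the number of cells of a type and a change in RNA per cell cannot be told apart.

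**Figure D1:**
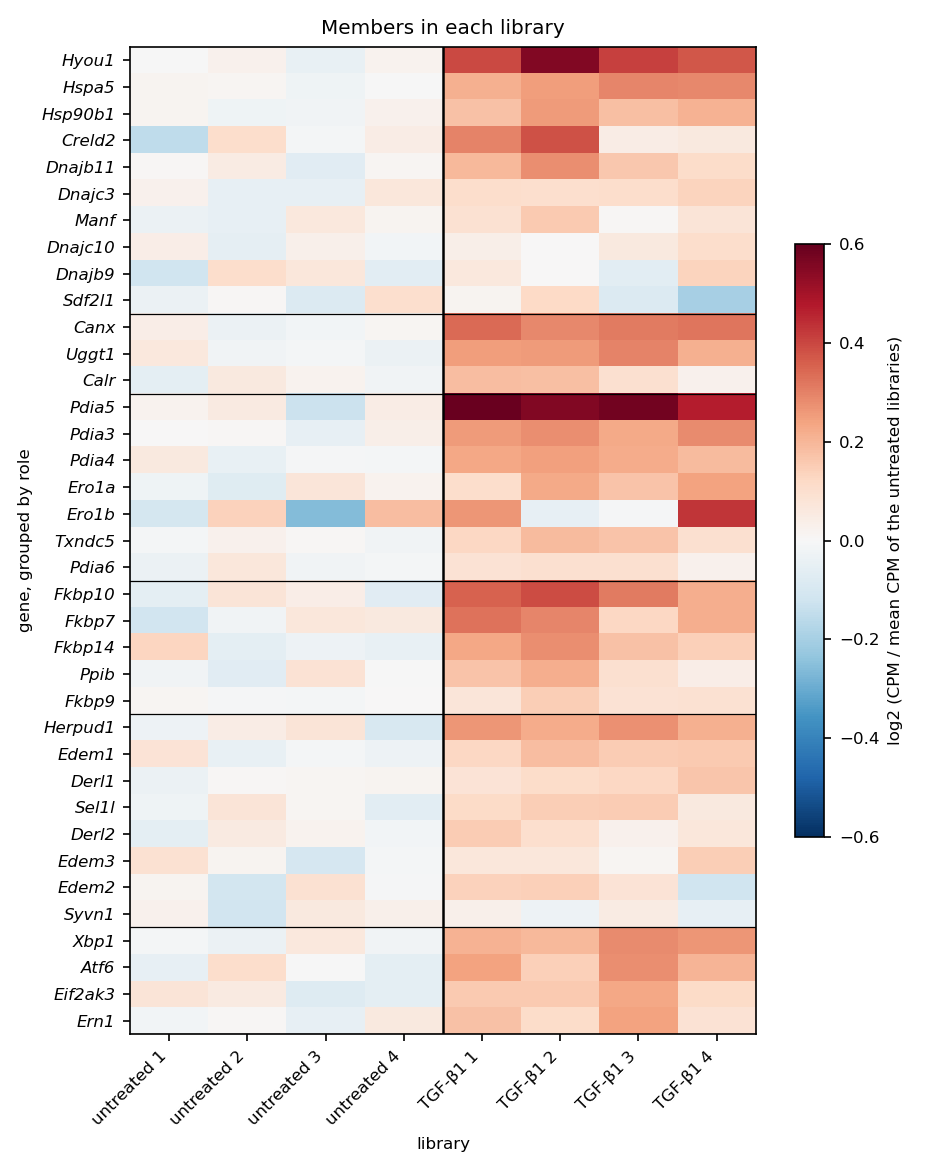
Each row is 1 of the 37 tested members and each column a library, and the colour gives the log2 of the CPM over the mean CPM of the untreated libraries (red higher, blue lower, horizontal lines between role groups). Of the 148 values in the treated libraries 140 lie above 0, and the deepest red is in Pdia5 and Hyou1.

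Library totals were 14340740 to 17176898 reads on genes. Ribosomal RNA was scarce in untreated replicate 1 (0.0332% of reads, against 1.09% to 2.56% in the other 7). With that library left out, 22 members rose and 0 fell. Leaving out each of the 8 libraries in turn gave 21 to 27 rises and 0 falls. The 10 fibroblast markers had the highest sum of the marker lists. They summed to 17181 to 18961 CPM in untreated and 19772 to 21362 CPM in treated libraries. CPM are read counts per library brought to a common size with the TMM factors. The 2 markers that rose, Col1a1 and Col1a2, carried the rise of that sum. The 8 that fell summed to 6949 to 7323 CPM and then to 4785 to 5006 CPM. Most of this was Col3a1, with means of 5132 and then 3572 CPM. Apart from the collagens, no fibroblast marker had an untreated mean above that of Dcn, 556 CPM. Of 14 cardiomyocyte markers 13 fell, from a sum of 825 to 898 CPM to a sum of 447 to 527 CPM. Of 5 tested mural markers 3 rose and 1 fell, with all 8 listed genes summing to 272 to 281 CPM and then 429 to 488 CPM. Epicardial and mesothelial markers summed to 1096 to 1156 CPM and then 878 to 914 CPM, with 2 of 8 higher and 3 lower. Endothelial and macrophage or blood markers summed to at most 81.5 and 230.1 CPM in any library, and the haemoglobin gene Hba-a1 was at 0 reads in every library. Whether these shifts in other cell types have a part in the changes of the ER genes was not tested.

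The lumenal chaperones were led by Hspa5, which encodes BiP, the main Hsp70 of the ER and the partner that holds the stress sensors inactive. Hspa5 (ENSMUSG00000026864, GRCm39 chromosome 2, 34661982 to 34667559, plus strand) stood at 723, 719, 701 and 714 CPM in the untreated libraries and at 827, 851, 876 and 871 CPM in the treated ones. The groups did not overlap, and the mean went from 714 ± 9.73 to 856 ± 22.2 CPM (SD, n = 4 and 4). The fitted change was 0.26 ± 0.03 on the log2 scale (± SE here and below; edgeR adjusted p = 1.45e-06). In GENCODE M39, 44.2% of the exonic bases of Hspa5 lie under the opposite-strand gene Rabepk, and no source used here says whether reads were counted by strand. Overlap shares here and below belong to the M39 exons and not to the gene model that was counted. For Hspa5 the M39 exons hold 5554 bases, against a gene length of 4229 bases with the deposited counts. The reads counted for Rabepk were 2.67% of those of Hspa5 in untreated and 2.54% in treated libraries.

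Hyou1, a large Hsp70 relative that exchanges nucleotide on BiP (ENSMUSG00000032115, chromosome 9, 44290787 to 44303666, plus strand), had the larger fitted change. It was at 164, 167, 159 and 167 CPM in untreated libraries and at 216, 241, 218 and 212 CPM in treated ones, with treated replicate 2 the highest. This was a rise of 35.3%, or 0.44 ± 0.04 on the log2 scale (edgeR adjusted p = 2.5e-08). Hsp90b1, the ER Hsp90 known as GRP94 (ENSMUSG00000020048, chromosome 10, 86526073 to 86541373, minus strand), was at 547, 532, 533 and 551 CPM and then at 610.1, 646, 612 and 625 CPM. The groups again did not overlap, and the change was 0.20 ± 0.03 (edgeR adjusted p = 5.23e-05). Per length, the ratio of Hyou1 to Hspa5 FPKM within a library was 0.134 ± 0.00197 (SD, n = 4) in untreated and 0.152 ± 0.0104 in treated cells. That ratio does not depend on library scaling, and it was lowest among treated libraries in replicate 4, at 0.142, above the highest untreated value of 0.137. It was chosen after its values were seen and was not tested. The ratio of Hsp90b1 to Hspa5, chosen in the same way, was 0.794 ± 0.0142 in untreated and 0.764 ± 0.0274 in treated cells. Its groups overlapped.

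The J-domain proteins, which deliver substrates to BiP, split. Dnajb11 (ERdj3) rose by 0.19 ± 0.04 on the log2 scale, with 99.8 to 108 CPM in untreated and 113 to 127 CPM in treated libraries (edgeR adjusted p = 0.00176). Dnajc3, a J-domain protein also known as an inhibitor of PERK, rose by 0.11 ± 0.04 (edgeR adjusted p = 0.0246). Its call was lost without untreated replicate 2 or 3 (edgeR adjusted p = 0.087 for each). Dnajb9 (ERdj4), which acts in the control of IRE1, was not called: it was at 46.1, 53.9, 52.4 and 47.8 CPM and then at 52.3, 50.1, 47.9 and 54.9 CPM, with overlap (0.04 ± 0.06, edgeR adjusted p = 0.676). Dnajc10 (ERdj5), which also reduces disulfides, was at 207 ± 6.31 and 214 ± 6.60 CPM (0.05 ± 0.04, edgeR adjusted p = 0.335).

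The small stress-regulated lumenal proteins were not called. Sdf2l1, a partner of ERdj3, was at 15.8, 16.2, 15.3 and 17.4 CPM in untreated and at 16.4, 17.6, 15.3 and 14.1 CPM in treated libraries (−0.04 ± 0.09, edgeR adjusted p = 0.793). Manf, a secreted protein of ER stress, was at 96.9 ± 3.53 and 103 ± 4.32 CPM (0.08 ± 0.04, edgeR adjusted p = 0.141). In GENCODE M39, 42.8% of the exonic bases of Manf lie under other genes, so that its count is uncertain. The whole-gene counts of Rbm15b and Dcaf1 came to 80.2% and 46.0% of that of Manf in untreated libraries, and reads within the shared exons were not measured apart. Creld2 was at 26.2, 31.4, 28.9 and 30.1 CPM and then at 35.8, 37.95, 30.1 and 30.4 CPM, so that treated replicates 1 and 2 were above all untreated libraries and treated replicates 3 and 4 were among them. The change of 0.20 ± 0.08 missed the threshold narrowly (edgeR adjusted p = 0.0514) and passed it without untreated replicate 2, treated replicate 3 or treated replicate 4 (edgeR adjusted p = 0.0235 to 0.0365).

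The lectin cycle holds newly made glycoproteins while they fold. All 3 of its members rose, with Canx and Uggt1 free of overlap. Canx, the membrane-bound lectin calnexin (ENSMUSG00000020368, chromosome 11, 50184788 to 50216500, minus strand), was at 683, 649.7, 658 and 670.4 CPM in untreated and at 842, 813, 826 and 832 CPM in treated libraries. It rose by 24.5%, or 0.32 ± 0.03 on the log2 scale (edgeR adjusted p = 7.71e-08). Uggt1, the folding sensor that adds glucose back to misfolded glycoproteins (ENSMUSG00000037470, chromosome 1, 36179108 to 36283801, minus strand), was at 239.8, 226, 227 and 224 CPM and then at 273, 273, 281 and 266 CPM (0.25 ± 0.04, edgeR adjusted p = 9e-06).

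Calr, the soluble lectin calreticulin (ENSMUSG00000003814, chromosome 8, 85568479 to 85573563, minus strand), had the highest level of all members per length, at 288 ± 9.97 FPKM untreated and 313 ± 16.8 FPKM treated (fragments per kilobase scaled to library size, as deposited). It was at 807, 876, 853 and 831 CPM in untreated and at 956, 956, 899.6 and 857 CPM in treated libraries, and treated replicate 4 fell within the untreated range. Its rise of 0.12 ± 0.04 (edgeR adjusted p = 0.018) was lost without untreated replicate 1 or 4 or treated replicate 1 or 2 (edgeR adjusted p = 0.0508 to 0.0637), and by limma on log2(FPKM + 1) (adjusted p = 0.0643). The ratio of Canx to Calr FPKM within a library was 0.486 ± 0.0278 (SD, n = 4) in untreated and 0.555 ± 0.0317 in treated cells. The lowest treated ratio, 0.522, lay just above the highest untreated one, 0.519 in untreated replicate 1. This ratio too was chosen after its values were seen.

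Among the disulfide enzymes 5 of 7 rose. Pdia5, a protein disulfide isomerase of low level here (ENSMUSG00000022844, chromosome 16, 35217682 to 35311243, minus strand), showed the steepest rise of the 37 members. It was at 28.8, 29.4, 25.9 and 29.2 CPM in untreated and at 42.8, 41.6, 42.3 and 39.4 CPM in treated libraries, with a wide gap between the groups. This was 46.2% more, or 0.55 ± 0.06 on the log2 scale (edgeR adjusted p = 1.85e-07). Pdia3 (ERp57), which works with calnexin and calreticulin (ENSMUSG00000027248, chromosome 2, 121244256 to 121269168, plus strand), was at 744, 745, 717 and 759 CPM and then at 886, 899.8, 869 and 901 CPM (0.26 ± 0.03, edgeR adjusted p = 1.39e-06). Opposite-strand exons cover 26.5% of its exonic bases. Reads counted for the most abundant of those genes, Catsper2, came to 0.183% of its own in untreated libraries. Reads within the shared exons were not measured apart.

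Pdia4 (ERp72; ENSMUSG00000025823, chromosome 6, 47773075 to 47790364, minus strand) was at 183, 171, 175 and 175 CPM and then at 207, 209, 205 and 201 CPM, without overlap (0.22 ± 0.04, edgeR adjusted p = 5.28e-05). Ero1a, the oxidase that supplies disulfides to the isomerases, rose by 0.19 ± 0.04 and Txndc5, an isomerase with thioredoxin domains, by 0.15 ± 0.03 (edgeR adjusted p = 0.00125 and 0.00175), both without overlap. The second oxidase gene, Ero1b, was far lower per length, at 1.02 ± 0.15 FPKM against 33.3 ± 1.39 for Ero1a in untreated cells, and its change was not called (0.17 ± 0.14, edgeR adjusted p = 0.365). Pdia6 (P5), which reduces IRE1 among other substrates, was at 247, 264, 248 and 249.97 CPM and then at 268, 269, 269.9 and 257 CPM (0.08 ± 0.04, edgeR adjusted p = 0.112). Treated replicate 4 of Pdia6 was within the untreated range and the other 3 were above it. The ratio of Pdia5 to Pdia6 FPKM within a library, chosen after its values were seen, was 0.141 to 0.158 in untreated and 0.207 to 0.216 in treated cells.

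**Figure D2:**
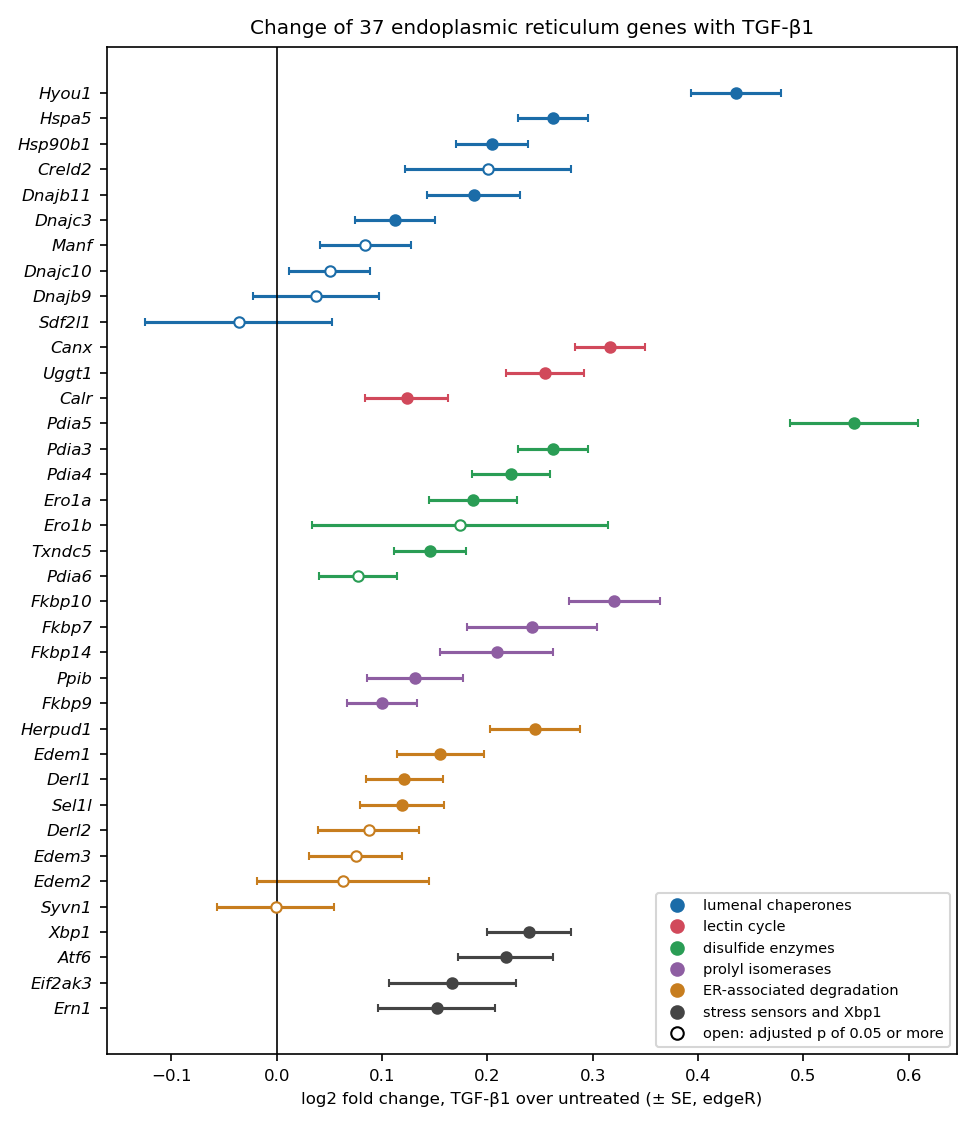
Points give the log2 fold change of each tested member, treated over untreated, and bars its SE in edgeR, with colours for the role groups and open points for members not called. Pdia5 at 0.55 and Hyou1 at 0.44 lie to the right of all others, and the open points lie between −0.04 and 0.20.

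All 5 prolyl isomerase genes among the members rose, but others listed outside the members did not. Fkbp2 fell (−0.31 ± 0.10, edgeR adjusted p = 0.0165). Fkbp11 (0.09 ± 0.12, edgeR adjusted p = 0.626) and Ppic (0.04 ± 0.04, edgeR adjusted p = 0.423) were not called. Fkbp10, which encodes FKBP65, a chaperone of procollagen (ENSMUSG00000001555, chromosome 11, 100306523 to 100315650, plus strand), was at 293, 322, 314 and 291 CPM in untreated and at 390.2, 401, 379 and 355 CPM in treated libraries. The groups did not overlap, and the change was 0.32 ± 0.04 on the log2 scale (edgeR adjusted p = 2.77e-06). Opposite-strand exons of Nt5c3b and P3h4 cover 25.5% of its exonic bases, so the count is uncertain. The whole-gene count of P3h4 came to 49.7% of that of Fkbp10 in untreated libraries. P3h4 itself rose by 0.16 (edgeR adjusted p = 0.00234) and Nt5c3b fell by 0.22 (edgeR adjusted p = 0.0271).

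Fkbp7 (ENSMUSG00000002732, chromosome 2, 76493388 to 76503460, minus strand) was at 32.1, 34.3, 36.4 and 36.3 CPM and then at 43.6, 42.6, 37.9 and 40.5 CPM (0.24 ± 0.06, edgeR adjusted p = 0.0037). Fkbp14, which also acts on procollagen (ENSMUSG00000038074, chromosome 6, 54554589 to 54574293, minus strand), was at 58.7, 51.5, 52.6 and 52.1 CPM and then at 63.2, 65.3, 60.7 and 59.4 CPM (0.21 ± 0.05, edgeR adjusted p = 0.0039). In both genes the lowest treated library lay only slightly above the highest untreated one. Ppib, cyclophilin B, which isomerises prolines of type I procollagen, rose by 0.13 ± 0.05 (edgeR adjusted p = 0.0283), with groups that overlapped. Exons of Snx22 cover 26.4% of its exonic bases, with a whole-gene count at 0.131% of that of Ppib in untreated libraries. Fkbp9 rose by 0.10 ± 0.03 (edgeR adjusted p = 0.0233), from 492 to 499.9 CPM in untreated to 521 to 549.5 CPM in treated libraries, the smallest rise that was called. The Ppib call was lost without untreated replicate 1, 2 or 4 or treated replicate 1 or 2 (edgeR adjusted p = 0.057 to 0.0999) and by limma on log2(FPKM + 1) (adjusted p = 0.0561), and the Fkbp9 call without untreated replicate 2 or 3 or treated replicate 2 (edgeR adjusted p = 0.057 to 0.0708). The ratio of Fkbp10 to Fkbp9 FPKM, also chosen after its values were seen, was 0.662 to 0.737 in untreated and 0.759 to 0.845 in treated cells.

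In ER-associated degradation 4 of 8 tested members rose and the rest did not pass the test. Herpud1, a membrane protein of the degradation complex and a classical target of the stress response (ENSMUSG00000031770, chromosome 8, 95113066 to 95122005, plus strand), rose the most of them. It was at 102, 108, 110.4 and 98.1 CPM in untreated and at 126, 122, 127 and 121 CPM in treated libraries (0.25 ± 0.04, edgeR adjusted p = 9.07e-05). Edem1, a mannosidase-like protein that marks glycoproteins for disposal (ENSMUSG00000030104, chromosome 6, 108805602 to 108836317, plus strand), was at 101, 92.6, 94.7 and 93.5 CPM and then at 104, 108, 106 and 106 CPM (0.16 ± 0.04, edgeR adjusted p = 0.00484). Derl1, a derlin of the exit channel (ENSMUSG00000022365, chromosome 15, 57732898 to 57755844, minus strand), was at 203, 209, 209 and 210.4 CPM and then at 219.6, 224, 226 and 233 CPM (0.12 ± 0.04, edgeR adjusted p = 0.012). In these 3 genes the groups did not overlap.

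The ligase at the core of the route gave a mixed result. Sel1l, its adaptor, rose by 0.12 ± 0.04 (edgeR adjusted p = 0.0232) with overlapping groups, and the call was lost without untreated replicate 1 or 4 or treated replicate 2 or 3 (edgeR adjusted p = 0.0539 to 0.0923). Syvn1, the ubiquitin ligase HRD1 itself, was at 44.4, 40.3, 45.4 and 44.6 CPM in untreated and at 44.6, 42.7, 45.2 and 42.2 CPM in treated libraries, with equal means of 43.7 CPM (SE 0.06 on the log2 scale, edgeR adjusted p = 0.992). Derl2 was at 61.3 ± 2.11 and 65.1 ± 2.41 CPM (0.09 ± 0.05, edgeR adjusted p = 0.17), Edem2 at 18.6 ± 1.09 and 19.4 ± 1.60 CPM (0.06 ± 0.08, edgeR adjusted p = 0.595) and Edem3 at 152 ± 8.34 and 160.4 ± 6.18 CPM (0.08 ± 0.04, edgeR adjusted p = 0.199). Derl3, a derlin typical of professional secretory cells, had 15, 2, 8 and 12 reads in untreated and 1, 8, 7 and 5 reads in treated libraries, and was not tested.

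Xbp1 and the sensors of the unfolded protein response were all called higher, by 0.15 to 0.24 on the log2 scale, and in all 4 genes the groups did not overlap. For the sensors Eif2ak3 and Ern1 the call depended on the fit. Xbp1, the transcription factor made active by IRE1-dependent splicing (ENSMUSG00000020484, chromosome 11, 5470659 to 5475893, plus strand), was at 129.6, 127, 136 and 129 CPM in untreated and at 151, 149.5, 159 and 157 CPM in treated libraries (0.24 ± 0.04, edgeR adjusted p = 4.64e-05). The counts are per gene, so spliced and unspliced Xbp1 were not measured apart. Opposite-strand exons of Ccdc117 cover 22.02% of its exonic bases, with the whole-gene count of Ccdc117 at 17.4% of that of Xbp1 in untreated and 13.8% in treated libraries.

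Atf6, the sensor that is cut in the Golgi to free a transcription factor (ENSMUSG00000026663, chromosome 1, 170532243 to 170695340, minus strand), was at 93.2, 104, 96.2 and 92.6 CPM and then at 114, 107, 117 and 111 CPM (0.22 ± 0.05, edgeR adjusted p = 0.00057). Eif2ak3, the kinase PERK that slows translation (ENSMUSG00000031668, chromosome 6, 70821499 to 70882229, plus strand), was at 34.2, 33.7, 30.8 and 31.1 CPM and then at 36.2, 36.2, 38.1 and 35.2 CPM (0.17 ± 0.06, edgeR adjusted p = 0.0347). Ern1, the kinase and nuclease IRE1α, was at 39.4, 40.1, 38.5 and 41.6 CPM and then at 45.1, 43.0, 47.1 and 42.3 CPM (0.15 ± 0.06, edgeR adjusted p = 0.0367). These last 2 calls sit close to the threshold. The Eif2ak3 call was lost without untreated replicate 3 or 4 or treated replicate 1, 2 or 3 (edgeR adjusted p = 0.053 to 0.104), and the Ern1 call without untreated replicate 1, 2 or 3 or treated replicate 1 or 3 (edgeR adjusted p = 0.0652 to 0.13). Eif2ak3 and Ern1 were also not called by DESeq2 (adjusted p = 0.0759 and 0.0768), with no count filter (edgeR adjusted p = 0.0626 and 0.0654) or with library totals (edgeR adjusted p = 0.322 and 0.365), and Ern1 not by limma on log2(FPKM + 1) (adjusted p = 0.068) or with replicate number as a block (edgeR adjusted p = 0.0525). Transcript levels say nothing of whether the sensors were active.

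Per length, the members spanned a wide range in untreated cells. Calr (288 FPKM), Pdia3 (232 FPKM), Hspa5 (166 FPKM), Fkbp9 (147 FPKM), Canx (139 FPKM) and Txndc5 (139 FPKM) were the highest, and Canx and Txndc5 did not differ beyond their spread (SD 3.20 and 1.72 FPKM). Derl1, at 61.4 ± 1.02 FPKM, was the highest of the degradation group and Xbp1, at 39.5 ± 1.16 FPKM, of the sensor group. The lowest were Derl3 (0.29 FPKM), Ero1b (1.02 FPKM), Ern1 (4.80 FPKM), Edem2 (5.27 FPKM) and Eif2ak3 (5.30 FPKM). The order of levels changed little with treatment (Spearman rho 0.99 between the 2 groups' means over 37 members), and the largest climbs in rank were those of Hyou1, from 23 to 19, and Pdia5, from 31 to 28.

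All 8 members above 100 FPKM rose, and of the 19 tested members under 30 FPKM 10 rose. Across the 37 members, which share the libraries, the level had a rho of 0.21 with the log2 fold change and of −0.83 with its SE. Lower members had the wider SE. The median coefficient of variation between replicates was 3.98% in untreated and 3.66% in treated cells.

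**Figure D3:**
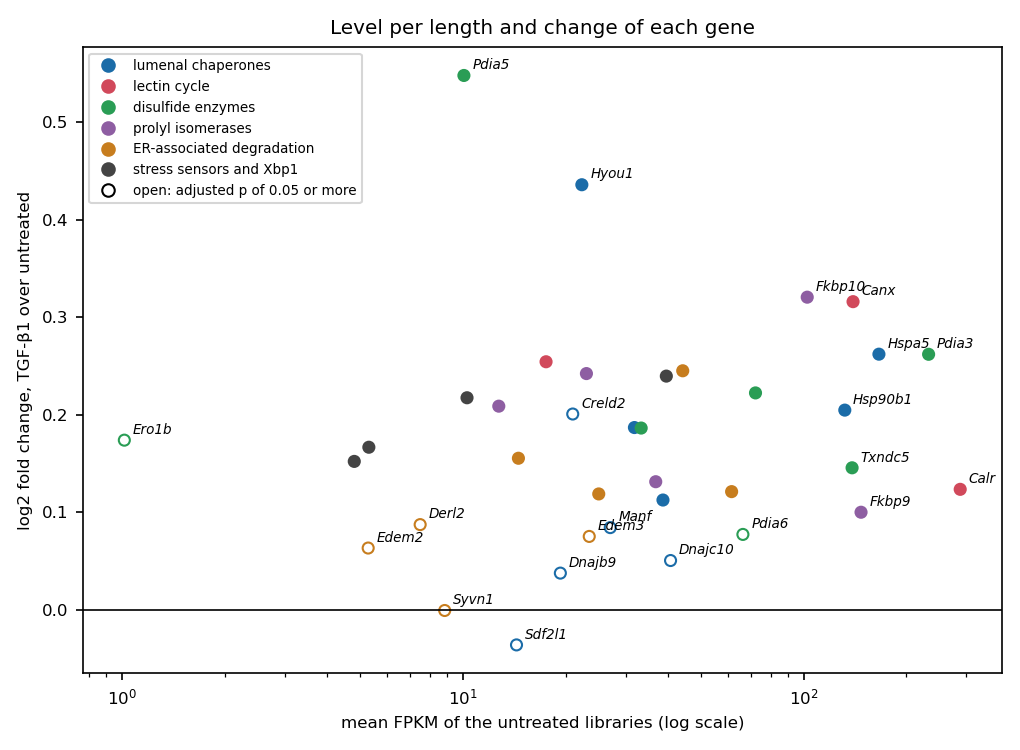
The x axis (log scale) gives the mean FPKM of each tested member in untreated libraries and the y axis its log2 fold change, with open points for members not called. The 8 genes above 100 FPKM are all filled points between 0.10 and 0.32, and the 2 largest changes belong to Pdia5 and Hyou1, at 10.1 and 22.3 FPKM.

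Other genes of the same compartment, in lists drawn up by role but with earlier results of these data known, are described by the same counts. Of 31 tested folding factors outside the members 16 rose and 1 fell, with a median log2 fold change of 0.16, and with library totals 10 rose and 4 fell. P4hb, the founding disulfide isomerase and a subunit of collagen prolyl hydroxylase, went from 1014 ± 13.3 to 1197 ± 25.9 CPM, or 0.24 ± 0.03 on the log2 scale (edgeR adjusted p = 2.96e-06). Serpinh1, the collagen chaperone HSP47, went from 2086 ± 36.7 to 2468 ± 111 CPM (0.24 ± 0.03, edgeR adjusted p = 5.99e-06). Qsox1, a sulfhydryl oxidase, rose by 0.40 ± 0.04 and Lman1, a cargo receptor for glycoproteins, by 0.33 ± 0.04. The factor that fell was Fkbp2 (−0.31 ± 0.10, edgeR adjusted p = 0.0165), which like the other lowered genes of these lists except Cryab was named after its value was seen. Its call was lost without untreated replicate 4 or treated replicate 4 (edgeR adjusted p = 0.0726 and 0.0777).

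Genes that attach and trim N-linked glycans rose in 10 of 16 cases and fell in 0 (edgeR; also 0 in DESeq2). The fitted change was above 0 in all 16, with a median of 0.16, and with library totals 6 rose and 0 fell. Ganab, a subunit of glucosidase II, rose by 0.29 ± 0.03, and Rpn1 and Rpn2, subunits of the oligosaccharyltransferase, by 0.26 ± 0.04 and 0.23 ± 0.03. In the other degradation genes 11 of 30 rose and 1 fell, with a median of 0.09. Rhbdd1, a rhomboid protease, rose by 0.44 ± 0.05, and Ufd1 and Nploc4, cofactors of the extraction ATPase, by 0.22 ± 0.06 and 0.18 ± 0.04, calls that library totals ended (edgeR adjusted p = 0.074 and 0.0728). Ngly1, the cytosolic glycanase, fell by 0.19 on the log2 scale (SE 0.06, edgeR adjusted p = 0.0226), and not without untreated replicate 1 or 2 or treated replicate 2 or 3 (edgeR adjusted p = 0.0513 to 0.0698). The count of risen degradation genes was 7 without untreated replicate 2 or 3 and 6 without untreated replicate 4 or treated replicate 2, and with library totals it was 1.

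Of 24 tested genes of other stress signalling, 12 rose and 2 fell, and the median was 0.15. Trib3, a pseudokinase induced by ATF4 and CHOP, rose by 0.72 ± 0.06 from 62.3 ± 5.34 to 102 ± 5.27 CPM (edgeR adjusted p = 5.03e-10), more than any member. Creb3l2, a membrane-bound transcription factor related to ATF6, rose by 0.56 ± 0.04 and the stress protein gene Nupr1 by 0.48 ± 0.06. Atf4, the transcription factor translated when PERK is active, rose by 0.27 ± 0.04, from 263 ± 7.29 to 318 ± 13.3 CPM (edgeR adjusted p = 5.59e-06). Ddit3, which encodes CHOP, rose by 0.15 ± 0.05 (edgeR adjusted p = 0.0327), and its call was lost without untreated replicate 1, 3 or 4 or treated replicate 1 or 2 (edgeR adjusted p = 0.0596 to 0.14) and with library totals (edgeR adjusted p = 0.337). Crebrf fell by 0.26 (SE 0.06, edgeR adjusted p = 0.001) and Eif2ak2, the kinase PKR, by 0.13 (SE 0.04, edgeR adjusted p = 0.0259). The Eif2ak2 call was lost without untreated replicate 4 or treated replicate 1 or 2 (edgeR adjusted p = 0.0712 to 0.085).

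Chaperones of the cytosol and mitochondria moved in both directions, with 10 of 26 higher (38.5%), 4 lower (15.4%) and a median of 0.06, against 17.6% higher and 18.5% lower over all genes tested. With library totals the balance turned, with 5 higher and 7 lower. Hspa9, the mitochondrial Hsp70, rose by 0.30 ± 0.03 and Hspa4, a cytosolic Hsp110-type protein, by 0.28 ± 0.03. Cryab, the small heat shock protein αB-crystallin, fell from 284 ± 11.5 to 230.2 ± 13.3 CPM (−0.30 ± 0.04). The heat-inducible gene Hspa1b (−1.15 ± 0.17, edgeR adjusted p = 1.32e-05), Hsph1 (−0.15 ± 0.05, edgeR adjusted p = 0.023) and Stip1 (−0.15 ± 0.05, edgeR adjusted p = 0.0177) fell as well. The Hsph1 call was lost without untreated replicate 1 or treated replicate 3 (edgeR adjusted p = 0.0914 and 0.104), and the Stip1 call without untreated replicate 2 or treated replicate 3 or 4 (edgeR adjusted p = 0.064 to 0.0813). Leaving out treated replicate 3 left 2 chaperones lower in place of 4. Cryab is also abundant in cardiomyocytes, whose markers fell in the same libraries, and the part of this in its fall was not tested. No test of a difference between these lists and the members was made.

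**Figure D4:**
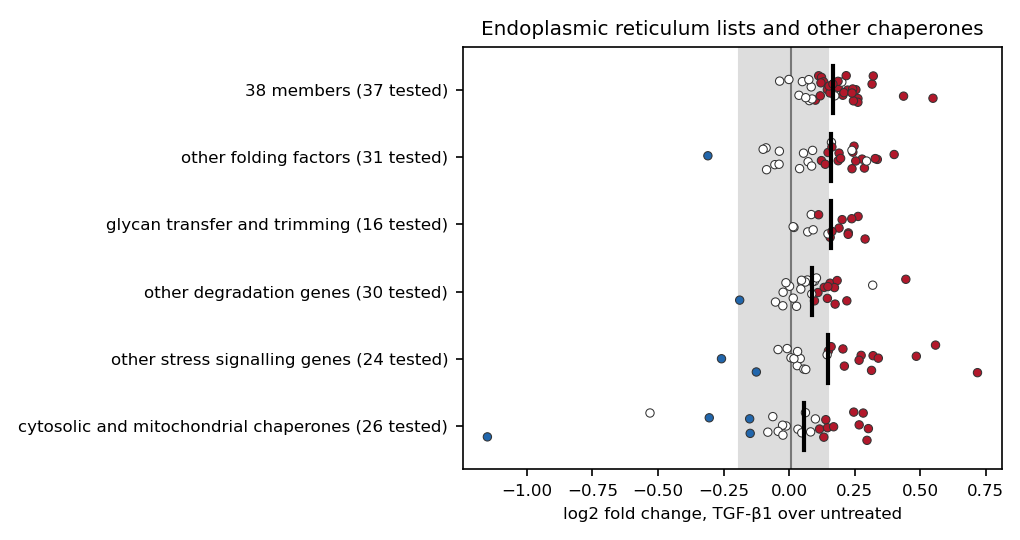
Each point is a tested gene at its log2 fold change (red higher, blue lower, white not called), the thick black bars are list medians, and the grey band holds the middle of all genes tested, from −0.19 to 0.15, with their median as a line. The members' median of 0.17 lies just beyond the upper edge of the band, and 21 of the 37 members lie above that edge.

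The effect of the scaling on single members is plain when both fits are set side by side. With library totals every log2 fold change was lower than with TMM, Fkbp9 fell back to 0.02 (edgeR adjusted p = 0.733), Calr to 0.04 (edgeR adjusted p = 0.428), Derl1 to 0.04 (edgeR adjusted p = 0.453) and Txndc5 to 0.06 (edgeR adjusted p = 0.177). Hspa5 was still higher at 0.18, Hyou1 at 0.36 and Pdia5 at 0.47. The 13 members whose call was lost had TMM values of 0.10 to 0.21, and their direction was kept.

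**Figure D5:**
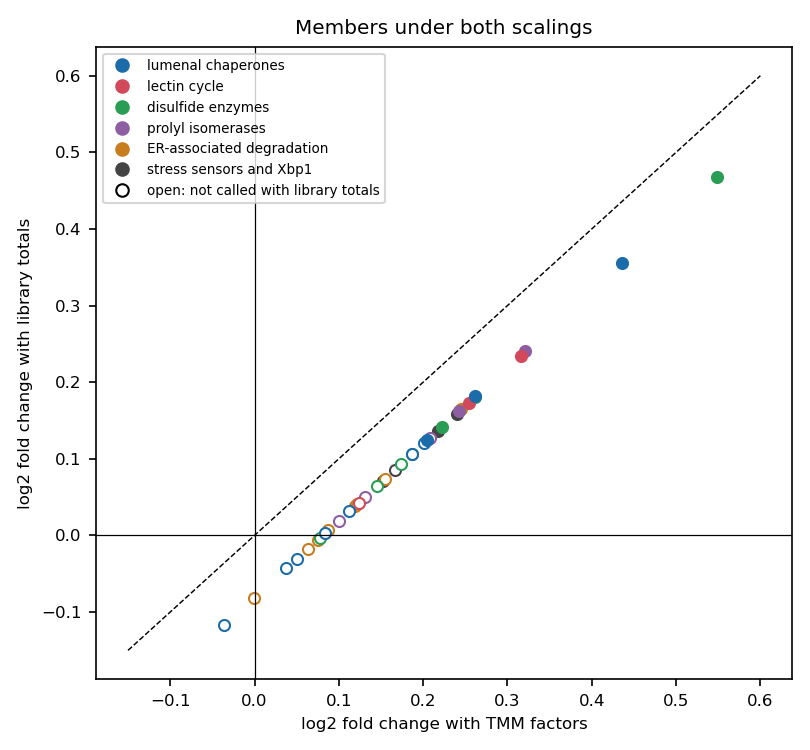
Each point is a tested member with its log2 fold change under TMM factors (x axis) and under library totals (y axis), open where library totals gave no call, and the dashed line marks equal values. All points lie below the line by a similar distance, and Pdia5 and Hyou1 stay well above 0 on both axes.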

How the data were processed

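Messenger RNA of 4 untreated and 4 TGF-β1-treated cultures was enriched with oligo(dT) beads and sequenced. Raw read counts per gene and FPKM values were deposited by the authors. Per the submitters' processing notes, CASAVA, HISAT2, Subread and featureCounts were used, with no versions, and the GRCm38 and mm10 builds are named, while the series design names mm39. The file intervals of all 38 members overlap the same gene in GENCODE M39 (GRCm39), and coordinates are read as GRCm39. Whether counting used strand is not stated. The deposited FPKM values equal count per length over a constant per library, 0.971 to 1.07 times its total, and are used for levels only, apart from 1 alternative test.

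Libraries were grouped by their titles. Counts were filtered with filterByExpr (minimum count 10, minimum total 15), scaled with TMM and fitted over 13960 genes by edgeR's quasi-likelihood method (R 4.3.3, edgeR 4.0.16; limma 3.58.1 and DESeq2 1.42.0 for alternatives), group as the only term, two-sided, Benjamini-Hochberg adjusted over all genes, called under 0.05. SE is the log2 fold change over the square root of F. CPM are TMM-scaled. The fit was tested on simulated data with set changes of 1.25-fold or more. Of the 26 called members 24 changed by less than that, so the simulation does not cover changes of their size. Replicate pairs differed by 2.08 to 3.16 times sampling noise, so none was a duplicate. The members, lists and tests were chosen with earlier results of these data known. Full values were given for the 3 called members with the smallest p in each role group and for members not called, and of each other list the 3 called genes with the smallest p, plus Atf4, Ddit3, P4hb and Serpinh1. Where a symbol had several rows, the one with most reads was used, and Hm13 is listed as H13.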

Additional observations from a re-analysis of the deposited data

Results flagged for a closer look

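In 74 groups of 4 libraries (37 members in 2 groups), 3 had a highest or lowest value set far off from the rest relative to the range of the group, and chance alone flags about 1 in 20. Dnajc3 was at 222 CPM in treated replicate 4, against 217 CPM in each of the other 3 treated libraries, which is a small distance in a very tight group. Pdia6 was at 257 CPM in the same library, against 268 to 269.9 CPM in the others. Fkbp14 was at 58.7 CPM in untreated replicate 1, the library with little ribosomal RNA, against 51.5 to 52.6 CPM in the other 3.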

How the results depend on the processing

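Each of the 37 tested members was refitted under 16 alternatives, and of the 592 resulting values 521 kept direction and side of the threshold, 49 lost the call, 6 gained one and 16 changed sign, all of the last in members not called. With library totals the genes called higher numbered 13 members, 10 other folding factors, 6 glycan genes, 1 degradation gene and 5 cytosolic and mitochondrial chaperones. In that fit 4 folding factors and 7 chaperones were called lower. Of the stress signalling genes named above, Trib3 (0.64), Creb3l2 (0.48), Nupr1 (0.41) and Atf4 (0.19) were still called higher with library totals. Crebrf (−0.34), Eif2ak2 (−0.21) and the degradation gene Ngly1 (−0.27) were still called lower. With library totals Dnajb9 (−0.0427), Dnajc10 (−0.0306), Pdia6 (−0.00347), Edem2 (−0.0176) and Edem3 (−0.00631) changed sign, and this follows from the lower scaling of all genes. Syvn1, near 0 throughout, was at 0.00236 with no count filter, 0.00185 with DESeq2 and 0.000988 with limma on log2(FPKM + 1). With a bound of a 25% rise (or the matching fall), 2 members, 3 folding factors, 0 glycan genes, 1 degradation gene, 4 stress signalling genes and 0 chaperones were higher. At the same bound 0 folding factors, 0 degradation genes, 0 stress signalling genes and 1 chaperone were lower. Over all genes tested, 6.39% were higher and 12.7% lower with that bound. With no filter 1 stress signalling gene was lower, and DESeq2 called 0 degradation genes lower. Leaving out 1 library at a time gave 21 to 27 members higher and 0 lower, 13 to 16 folding factors higher and 0 to 1 lower, 9 to 10 glycan genes higher, 6 to 11 degradation genes higher and 0 to 1 lower, 11 to 12 stress signalling genes higher and 1 to 2 lower, and 7 to 9 chaperones higher and 2 to 5 lower. Dnajb9 ranged from −0.00533 to 0.0746, Syvn1 from −0.0367 to 0.0176 and Sdf2l1 from −0.0890 to 0.0199 in those fits. RLE scaling, a filter at 1 CPM in 4 libraries and removal of ribosomal RNA and Lars2 gave 26, 26 and 27 members higher. No pairing by replicate number was detected. Deviations of same-numbered libraries correlated at −0.05, −0.03, 0.02 and 0.06, and the highest value, 0.12, was between untreated 1 and treated 2. These correlations cannot show whether same-numbered cultures shared a litter. With the replicate block 26 members were higher, with Creld2 in place of Ern1. Among members under 30 FPKM the smallest change called at this depth was 0.12, in Sel1l.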
